A study of Mus musculus with 6 samples.

Results

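Amino acids cross cell membranes through carriers of several solute carrier (SLC) families. The subject here is the genes of the Slc1, Slc3, Slc6, Slc7, Slc36 and Slc38 families in kidney cells of newborn mice. The mice carried Hoxb7-Cre, with the bradykinin receptor gene Bdkrb2 either floxed on both alleles (KO) or intact (WT). Members were taken by symbol, as every gene whose symbol begins with Slc1a, Slc3a, Slc6a, Slc7a, Slc36a or Slc38a and a number, leaving out Slc6a6, Slc6a12 and Slc38a2. Of 61 such genes in a RefSeq table of mouse genes, 57 had a named probe on the array. Among these, 40 had a probe that stood well above background on 3 or more of the 6 arrays, out of 14755 genes tested in all. The rule is one of names, so it also takes in Slc7a6os, which is named for its position beside Slc7a6 and is not a carrier, and the creatine carrier Slc6a8 and the GABA carrier Slc6a13.

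RNA was measured on 6 Agilent arrays with 2 colours, 3 arrays for KO and 3 for WT cells. The KO pups carried Hoxb7-Cre, floxed Bdkrb2 on both alleles (Bdkrb2 F/F) and the R26R tdTomato reporter, and the WT pups carried Hoxb7-Cre, R26R tdTomato and Bdkrb2+/+. Kidneys of C57BL/6 newborns were taken at day 1 and their cells with GFP and dsRED signal were isolated by FACS. Both groups had 5% sodium food, so the Cre, the reporter and the salt load were shared by both groups. Hoxb7-Cre drives recombination in the ureteric bud and the collecting duct that forms from it. The Cy5 channel held the sample, and the Cy3 channel of every array held RNA of WT replicate 1, so a value below is a log2 ratio of a sample to that RNA and the array of WT replicate 1 set it against itself. The number of animals behind a sample is not stated, and litter and genotype cannot be told apart.

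Most carriers of these families fall into types that differ in what drives them. SLC1 and SLC38 carriers and many SLC6 carriers draw on the sodium gradient, SLC36 carriers move amino acids with protons, and many SLC7 carriers are light chains that exchange one amino acid for another and reach the membrane only when bound to an SLC3 heavy chain. In the kidney the absorptive carriers sit mainly in the proximal tubule, where they recover filtered amino acids, and other members feed growing cells or export amino acids from lysosomes.

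In KO cells 3 of the 40 members were higher and 8 were lower than in WT cells, by limma at an adjusted p under 0.05. The higher genes were the neutral amino acid carriers Slc38a4 and Slc38a5 and the glutamate carrier Slc1a6. The lower genes were Slc7a4, Slc7a12, Slc7a8, Slc38a3, Slc6a7, Slc1a1, Slc38a6 and Slc6a8. The 11 calls are 27.5% of the members, against 35.3% of all genes tested. By direction the background was 15.3% of genes higher and 20% lower. Of the members only Slc7a4 was called with a change of at least 2-fold, as were 8.52% of all genes (3.35% higher and 5.17% lower). For 17 of the 40 members KO and WT values were fully separate, against 52.1% of all genes, with KO above WT for 6 (23.9% of all genes) and below it for 11 (28.2%). In this fit the members' shares were at or below the background, but the comparison turned with the setting. With the Cy5 channel alone 37.5% of members were lower, against 19% of all genes, with array weights 35%, against 25.6%, and without WT replicate 2 30%, against 17.9%. Other settings went the other way. Without KO replicate 2 12.5% of members were lower, against 15.6%, without WT replicate 1 12.5%, against 15%, and without WT replicate 3 10%, against 13.4%. Among the called members Slc6a7 passed the background filter through the WT arrays alone, so a lower value in KO was built into its selection, and 7 lower calls remain without it. Slc6a7 is also among the 11 members below WT, and Slc38a8, among the 6 above WT, passed through the KO arrays alone. The direction of both separations was thus built in as well. The median difference, KO minus WT, was -0.20 over the members and -0.02 over all genes, and the median size of a difference was 0.35 and 0.28. The split between directions depended on the scaling. With arrays centred on their median in place of loess, 5 members were higher and 3 lower, and the median over all genes moved to 0.24 while that over members moved to -0.01.

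**Figure D1:**
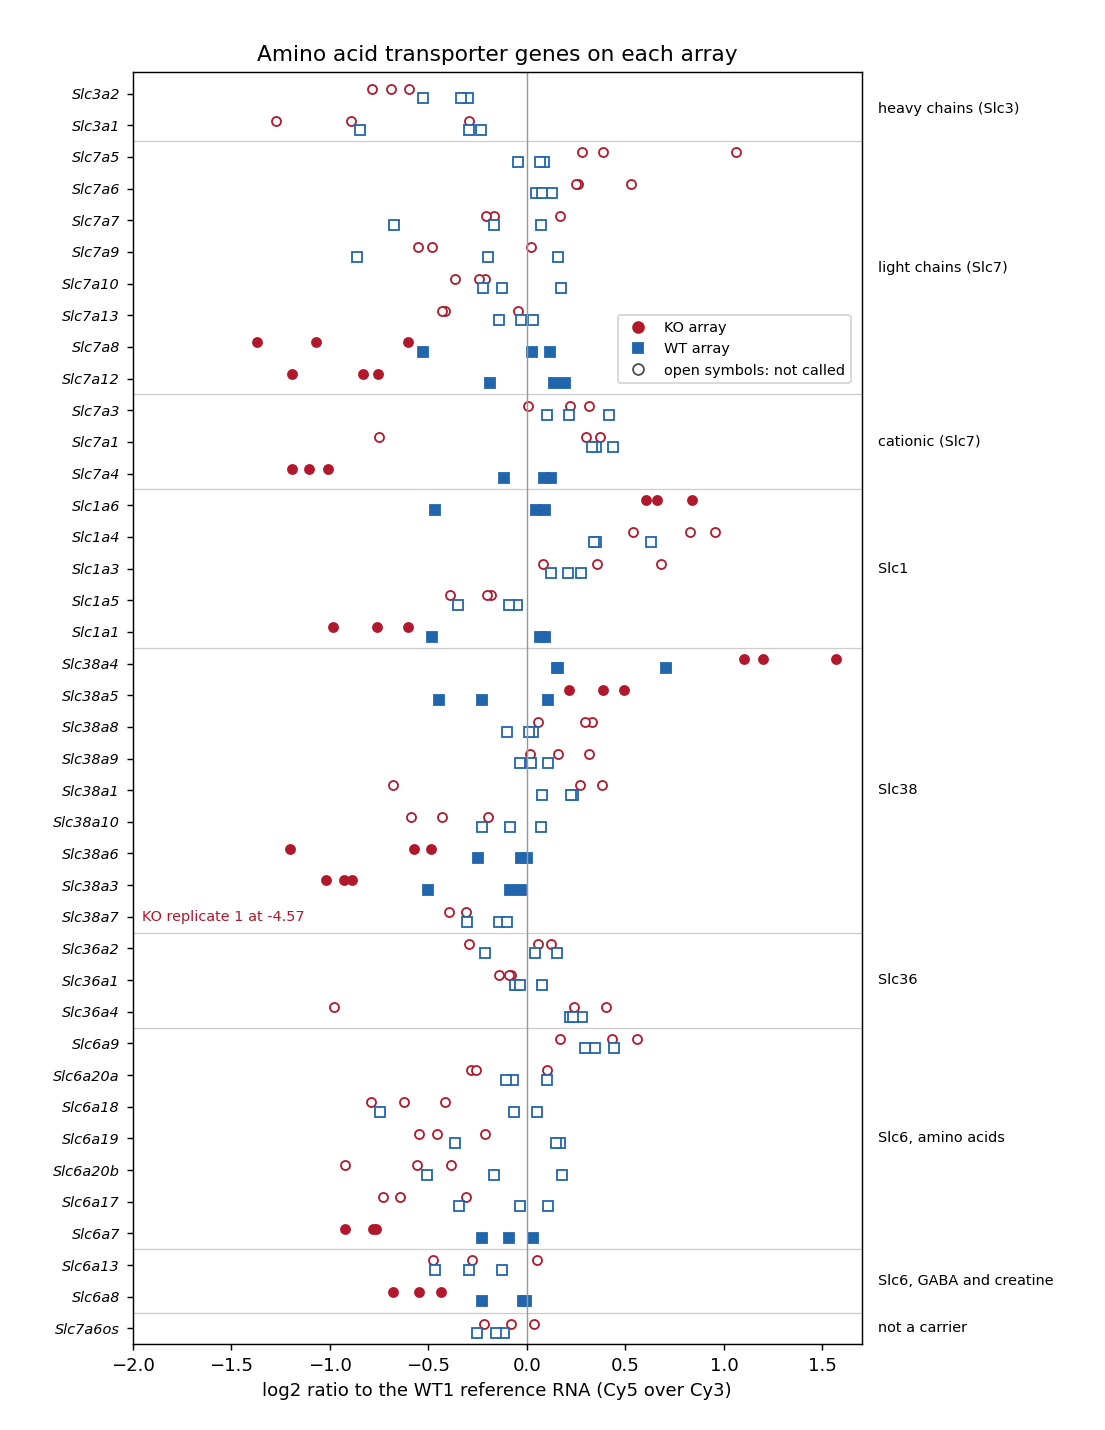
Log2 ratio of each of the 40 members to the WT replicate 1 RNA (Cy5 over Cy3), with 3 KO arrays as red circles and 3 WT arrays as blue squares, grouped by family and role. Filled symbols mark the 11 called members, whose KO and WT values do not overlap. Slc38a7 on the array of KO replicate 1 lies off the axis at -4.57.

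The 2 groups also differed in markers of cell types. Markers of principal cells (10 of 10 tested), intercalated cells (12 of 12) and the loop and distal tubule (10 of 10) were lower in KO, and 9 of 10 nephron progenitor and 10 of 12 stroma markers were higher. Endothelial markers were lower for 10 of 12 and erythroid markers for 6 of 6, and immune markers were higher for 8 of 10 and lower for 1. Over all genes 15.3% were higher and 20% were lower. Of the proximal tubule markers 6 of 14 were lower (42.9% called, against 35.3% of all genes), and the other 8 were not called. All 14 proximal tubule markers were well above background in both groups, in cells labelled as collecting duct, and their source was not tested. In bulk RNA fewer cells of a type and less RNA per cell cannot be told apart. Bdkrb2 itself had 1 named probe, which was never well above background, so it gave no check of the genotype labels. Between 56.6% and 57.5% of spots per KO array and 49.8% and 52.7% per WT array were well above background in the sample channel, and no spot was saturated. On the array of KO replicate 1, 439 genes (2.98%) lay more than 1 log2 unit from the mean of the other 2 KO arrays, against 42 to 70 genes on each other array.

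The SLC3 heavy chains and their SLC7 light chains make up the heteromeric carriers. Neither of the 2 heavy chains was called. Of the 8 light chains tested 2 were called (25%, against 35.3% of all genes), both lower. Slc3a2 encodes the CD98 heavy chain, which carries the light chains Slc7a5, Slc7a6, Slc7a7, Slc7a8, Slc7a10 and Slc7a11 to the membrane. Its log2 ratios were -0.60, -0.79 and -0.69 on the KO arrays, against -0.30, -0.53 and -0.34 on the WT arrays. Every KO value lay below every WT value, by a mean of -0.31 ± 0.11 (SE, n = 3 each), which missed the threshold (adjusted p = 0.0617). Slc3a1, the heavy chain of the cystine carrier whose loss causes cystinuria, had -0.30, -0.89 and -1.27 in KO, against -0.23, -0.85 and -0.29 in WT. These ranges overlap (difference -0.36 ± 0.26, adjusted p = 0.311). Without KO replicate 1 both heavy chains were called lower, Slc3a1 at -0.63 (adjusted p = 0.0409) and Slc3a2 at -0.35 (adjusted p = 0.0359), and both were also called with array weights. Other settings weakened them. With single arrays left out Slc3a1 ran from -0.63 to -0.14, and with median centring Slc3a2 differed by 0.02.

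Slc7a8 encodes LAT2, which exchanges neutral amino acids on the basolateral side of proximal tubule cells. It had -0.60, -1.37 and -1.07 in KO, against 0.12, -0.52 and 0.02 in WT. The KO arrays were all lower, although KO replicate 1 came close to WT replicate 2. The difference was -0.89 ± 0.23 (adjusted p = 0.0190). Slc7a12 encodes Asc-2, a carrier of small neutral amino acids whose heavy chain is not known. It had -1.19, -0.75 and -0.83 in KO, against 0.14, -0.19 and 0.19 in WT. The groups were well apart, with a difference of -0.97 ± 0.15 (adjusted p = 0.00232), or 1.96-fold lower in KO.

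The other 6 light chains tested were not called. Slc7a5 encodes LAT1, the main importer of leucine and other large neutral amino acids in growing cells. Its brighter probe gave 1.06, 0.28 and 0.39 in KO, against -0.05, 0.09 and 0.06 in WT (difference 0.54 ± 0.20, adjusted p = 0.0658). Its second probe, also well above background on all 6 arrays, gave -0.29, -0.02 and -0.03 in KO, against 0.12, 0.14 and 0.06 in WT. The 2 probes thus lay on opposite sides, with KO above WT on one and below it on the other, so the direction for Slc7a5 is not settled. Slc7a6, the y+LAT2 chain that trades cationic for neutral amino acids, had 0.26, 0.53 and 0.25 in KO, against 0.05, 0.13 and 0.08 in WT. The KO values were all above, but the difference of 0.26 ± 0.11 missed the threshold (adjusted p = 0.104). Slc7a6 was called higher in 3 of 17 alternatives, which count the authors' ratios from the array files and from their matrix separately. Slc7a7, the y+LAT1 chain of basolateral cationic amino acid export, had 0.17, -0.17 and -0.21 in KO, against 0.07, -0.68 and -0.16 in WT. Slc7a9, the cystinuria light chain that pairs with Slc3a1, had 0.02, -0.48 and -0.55 in KO, against 0.16, -0.86 and -0.20 in WT. Both overlapped widely, with differences of 0.19 ± 0.20 and -0.04 ± 0.26 (adjusted p = 0.491 and 0.928). Slc7a13, an aspartate and glutamate carrier that also pairs with Slc3a1, had -0.42, -0.43 and -0.04 in KO, against 0.03, -0.14 and -0.03 in WT (difference -0.25 ± 0.13, adjusted p = 0.175). Its probe was well above background on 2 KO and 3 WT arrays, and it was called lower in 4 of 16 alternatives, the authors' deposited ratios among them. Slc7a10, the small neutral amino acid and D-serine exchanger Asc-1, had -0.37, -0.21 and -0.24 in KO, against 0.17, -0.22 and -0.12 in WT (difference -0.22 ± 0.13, adjusted p = 0.220), and was well above background on only 2 KO arrays and 1 WT array. The cystine and glutamate exchanger Slc7a11 was never well above background and was not tested.

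Of the 3 members tested in the cationic branch of SLC7, Slc7a4 was called (33.3%, against 35.3% of all genes). It is grouped there by sequence, and its transported substrate is not settled. It had the largest called change of the members, with -1.01, -1.19 and -1.10 in KO, against -0.12, 0.12 and 0.08 in WT. The replicates of each group lay close together and the gap between the groups was far wider than the spread within them, for a difference of -1.13 ± 0.11 (adjusted p = 0.000303), or 2.19-fold lower in KO. A second, dimmer probe of Slc7a4 was never well above background and differed by -0.13. Slc7a1, the main importer of arginine and lysine, had -0.75, 0.37 and 0.30 in KO, against 0.35, 0.44 and 0.33 in WT (difference -0.40 ± 0.27, adjusted p = 0.289). Only KO replicate 1 stood apart there, and without it the difference was -0.04. Slc7a3, another cationic amino acid importer, differed by -0.06 ± 0.13 (adjusted p = 0.723).

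Among the 5 SLC1 genes tested, which encode carriers of glutamate, aspartate or small neutral amino acids, 1 was higher and 1 was lower. That is 40% called, against 35.3% of all genes. Slc1a6 encodes EAAT4, best known from Purkinje cells of the cerebellum. It had 0.66, 0.84 and 0.60 in KO, against 0.05, 0.09 and -0.46 in WT. All 3 KO values were above all WT values, with a difference of 0.81 ± 0.16 (adjusted p = 0.00646), and the probe was well above background on 3 KO arrays but only 2 WT arrays. With the authors' deposited ratios the difference was 1.75 and missed the threshold (adjusted p = 0.0593). Slc1a1 encodes EAAT3, which recovers filtered glutamate and aspartate in the proximal tubule. It had -0.60, -0.99 and -0.76 in KO, against 0.07, -0.48 and 0.09 in WT. The groups did not overlap and WT replicate 2 was the lowest of the WT arrays (difference -0.68 ± 0.18, adjusted p = 0.0200). The serine and alanine carrier Slc1a4 had 0.96, 0.83 and 0.54 in KO, against 0.35, 0.63 and 0.34 in WT (difference 0.33 ± 0.14, adjusted p = 0.103). The glutamine carrier Slc1a5 (-0.10 ± 0.12, adjusted p = 0.565) and the glial glutamate carrier Slc1a3 (0.17 ± 0.16, adjusted p = 0.419) were not called either.

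In the SLC38 family 4 of 9 members tested were called (44.4%, against 35.3% of all genes), in both directions. Slc38a4 encodes SNAT4, a sodium-driven carrier of neutral amino acids that in mice is imprinted and expressed from the paternal copy. It had 1.57, 1.20 and 1.10 in KO, against 0.16, 0.71 and 0.15 in WT. WT replicate 2 was the highest WT array and still below every KO array, and the difference of 0.95 ± 0.19 (adjusted p = 0.00590) was the largest rise of the members, 1.93-fold. Slc38a5, the glutamine and glycine carrier SNAT5, had 0.49, 0.21 and 0.38 in KO, against 0.11, -0.23 and -0.45 in WT. The groups did not overlap, but KO replicate 2 came close to WT replicate 1 (difference 0.55 ± 0.16, adjusted p = 0.0266).

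Slc38a3 encodes SNAT3, which supplies kidney tubule cells with glutamine for ammonia production. It had -0.93, -1.02 and -0.89 in KO, against -0.03, -0.50 and -0.09 in WT. The KO arrays lay close together and below all WT arrays, with a difference of -0.74 ± 0.14 (adjusted p = 0.00505), or 1.67-fold lower. Slc38a6, an SLC38 member studied mainly in brain, had -1.20, -0.57 and -0.48 in KO, against -0.25, 0.00 and -0.03 in WT. KO replicate 1 was well below the other KO arrays, and the difference was -0.66 ± 0.19 (adjusted p = 0.0292).

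Of the 5 SLC38 genes not called, Slc38a7, a lysosomal glutamine exporter, had the largest difference of any member, -1.58 ± 1.00 (adjusted p = 0.256). It had -4.57, -0.31 and -0.40 in KO, against -0.30, -0.14 and -0.10 in WT, so one array made the difference. Slc38a8, known from the retina, was not well above background in WT and had 0.33, 0.30 and 0.06 in KO, against 0.03, 0.01 and -0.10 in WT. Its difference has no settled size, since it was not called here (adjusted p = 0.121) and ran from 0.015 with Cy5 alone to 2.62 with the authors' deposited ratios, where it was called. Slc38a9, the lysosomal arginine sensor of mTORC1, differed by 0.13 ± 0.11 (adjusted p = 0.393). Slc38a10 had -0.59, -0.43 and -0.20 in KO, against -0.08, -0.23 and 0.07 in WT (-0.32 ± 0.14, adjusted p = 0.0985). The glutamine importer Slc38a1 differed by -0.19 ± 0.26 (adjusted p = 0.599).

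In SLC6, 2 of 9 tested genes were lower, against 20% of all genes, and none was higher, against 15.3%. One of these, Slc6a7, passed the background filter through the WT arrays alone. Its direction was built into its selection, so it adds nothing to that count. Slc6a7 encodes a proline carrier of brain synapses. It had -0.77, -0.92 and -0.78 in KO, against 0.03, -0.23 and -0.09 in WT. It stood above background in all 3 WT samples and in no KO sample, so its level in KO is only bounded. On the scale of the Cy5 signal alone, with mean log2 values of 6.05 in KO and 6.86 in WT, the bound is at least 1.75-fold lower. The ratio to the reference differed by less, -0.73, so the bound holds for that scale only (adjusted p = 0.00181). Slc6a8, the creatine carrier, had -0.43, -0.68 and -0.54 in KO, against 0.00, -0.23 and -0.02 in WT. The groups did not overlap (difference -0.47 ± 0.11, adjusted p = 0.0148, 1.38-fold lower).

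Of the apical SLC6 carriers of the proximal tubule, Slc6a19, Slc6a18 and Slc6a20b were low on the KO arrays and on the array of WT replicate 2, and Slc6a20a was not. Slc6a19 encodes the main apical carrier of neutral amino acids, whose loss causes Hartnup disorder. It had -0.21, -0.46 and -0.55 in KO, against 0.17, -0.37 and 0.15 in WT (difference -0.39 ± 0.17, adjusted p = 0.108). Slc6a18, an apical carrier of glycine and alanine, had -0.41, -0.63 and -0.79 in KO, against 0.05, -0.74 and -0.07 in WT (-0.36 ± 0.21, adjusted p = 0.224). In both genes WT replicate 2 lay among the KO values and the other WT arrays lay above them. Slc6a20b, a copy of the proline carrier gene, had -0.39, -0.92 and -0.56 in KO, against 0.18, -0.51 and -0.16 in WT (-0.46 ± 0.20, adjusted p = 0.112), while Slc6a20a, the other copy, had 0.10, -0.28 and -0.26 in KO, against 0.10, -0.07 and -0.10 in WT (-0.12 ± 0.13, adjusted p = 0.511). The 2 copies are close in sequence and their probes may share targets. The vesicular neutral amino acid carrier Slc6a17 had -0.64, -0.73 and -0.31 in KO, against 0.11, -0.35 and -0.03 in WT (-0.47 ± 0.16, adjusted p = 0.0516), and it was called lower in 8 of 17 alternatives, the authors' deposited ratios among them (adjusted p = 0.0282). The glycine carrier Slc6a9 (0.02 ± 0.12) and the GABA carrier Slc6a13 (0.06 ± 0.16) differed by less than their SE. None of the 3 SLC36 genes tested was called. The lysosomal exporter Slc36a1 differed by -0.10 ± 0.09 (adjusted p = 0.448), the glycine and proline carrier Slc36a2 by -0.03 ± 0.15 (adjusted p = 0.893) and Slc36a4 by -0.36 ± 0.32 (adjusted p = 0.418). Slc7a6os differed by 0.09 ± 0.11 (adjusted p = 0.552).

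**Figure D2:**
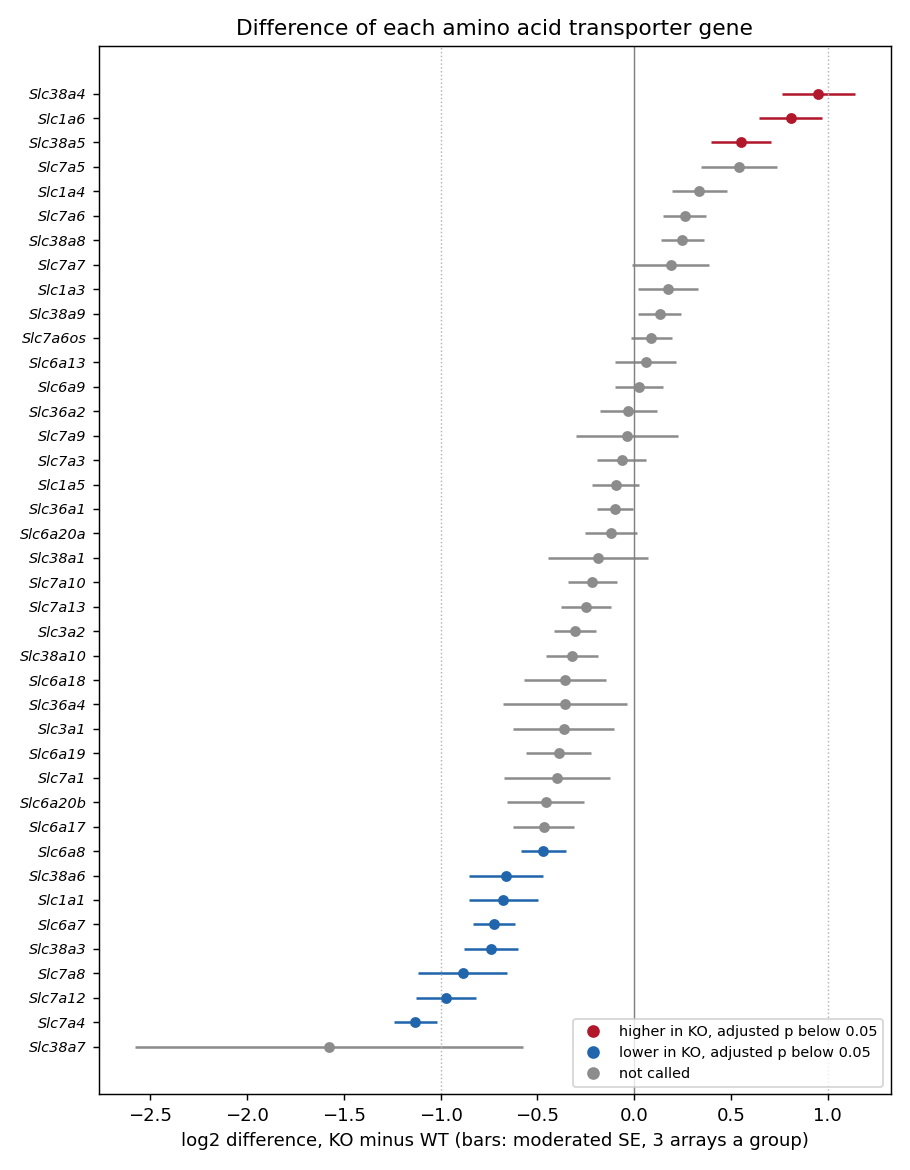
Difference in log2 ratio, KO minus WT, of each of the 40 members with its standard error (n = 3 arrays per group), in order of size. Red points are the 3 members called higher and blue points the 8 called lower in KO, grey points were not called, and dotted lines mark a 2-fold change. Slc38a7 has the widest error, at 1.00.

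Members known for absorption in the tubule were set against the proximal tubule markers. These 12 genes (Slc1a1, Slc3a1, Slc6a18, Slc6a19, Slc6a20a, Slc6a20b, Slc7a7, Slc7a8, Slc7a9, Slc7a13, Slc36a2 and Slc38a3) were grouped after their values were seen, so the group gets no test. Their median log2 ratio per array was -0.34, -0.55 and -0.56 in KO, against 0.09, -0.50 and -0.08 in WT. The median over the 14 proximal tubule markers was -0.63, -0.78 and -1.10 in KO, against 0.10, -0.97 and -0.17 in WT. In both groups of genes WT replicate 2 was as low as the KO arrays and the other WT arrays were higher. WT replicate 2 was also the lowest WT array over the 6 erythroid markers, at -1.36, against -0.11 and 0.24 on the other WT arrays. The same held for the loop and distal (-0.69), intercalated cell (-0.40), podocyte (-0.97) and principal cell (-0.09) markers. It did not hold for the nephron progenitor, stroma, endothelial, immune or neural markers. Of the 12 members 3 were called (25%, against 35.3% of all genes), all lower (Slc7a8, Slc38a3 and Slc1a1). Over all genes 20% were lower. Without WT replicate 2, 6 were called, all lower, and 17.9% of all genes were lower in that fit. The added ones were Slc6a18 (-0.60 ± 0.14, adjusted p = 0.0208), Slc6a19 (-0.56 ± 0.14, adjusted p = 0.0217) and Slc6a20b (-0.63 ± 0.19, adjusted p = 0.0490). Without WT replicate 1 or 3 or KO replicate 2, 1 was called, and 15%, 13.4% and 15.6% of all genes were lower. Among the other 28 members 8 were called (28.6%), 3 higher and 5 lower. The part of the tubule markers in the members' differences was not tested.

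**Figure D3:**
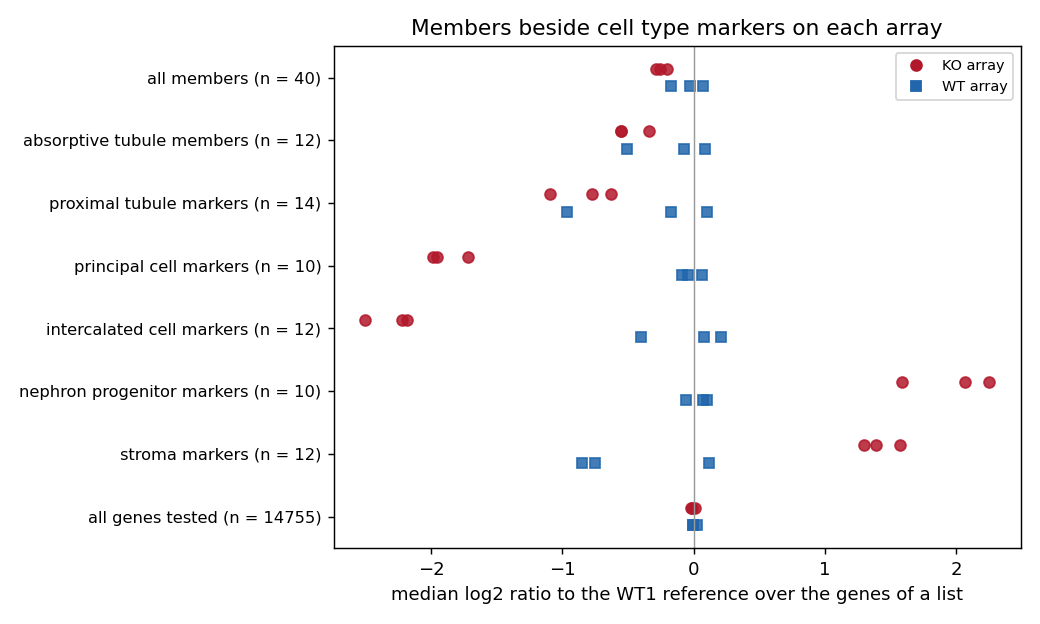
Median log2 ratio on each array over the 12 absorptive tubule members and over marker lists of cell types, with 3 KO arrays as red circles and 3 WT arrays as blue squares. For the absorptive members and the proximal tubule markers WT replicate 2 lies with the KO arrays, at -0.50 and -0.97. The stroma median is 1.30 to 1.57 in KO and -0.85 to 0.12 in WT.

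The array of KO replicate 1 stood apart for 4 members by at least 1 log2 unit, and the 2 channels of those spots differed in kind. For Slc38a7 the sample channel on that array had a log2 signal of 8.51, close to the 7.96 to 8.18 of the other 5 arrays. The reference channel, which holds the same RNA on all 6 arrays, had 13.08 there, against 8.14 to 8.43 elsewhere. The ratio of -4.57 therefore came from the reference signal, whose SD over arrays was 1.95 for Slc38a7 and at most 0.27 for any other member. For Slc36a4, Slc7a1 and Slc38a1 the reference was level and the sample was dimmer on that array. Slc36a4 had a sample signal of 7.07 on it, against 8.30 and 8.53 on the other KO arrays, Slc7a1 had 10.44 against 11.61 and 11.43, and Slc38a1 had 11.21 against 12.28 and 12.31. A different pair of probes for Slc38a1 differed by 0.01 and -0.02 between KO and WT. Without KO replicate 1 the difference of Slc36a4 was 0.07 and that of Slc38a1 was 0.15, both opposite in sign to the fit over 6 arrays.

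**Figure D4:**
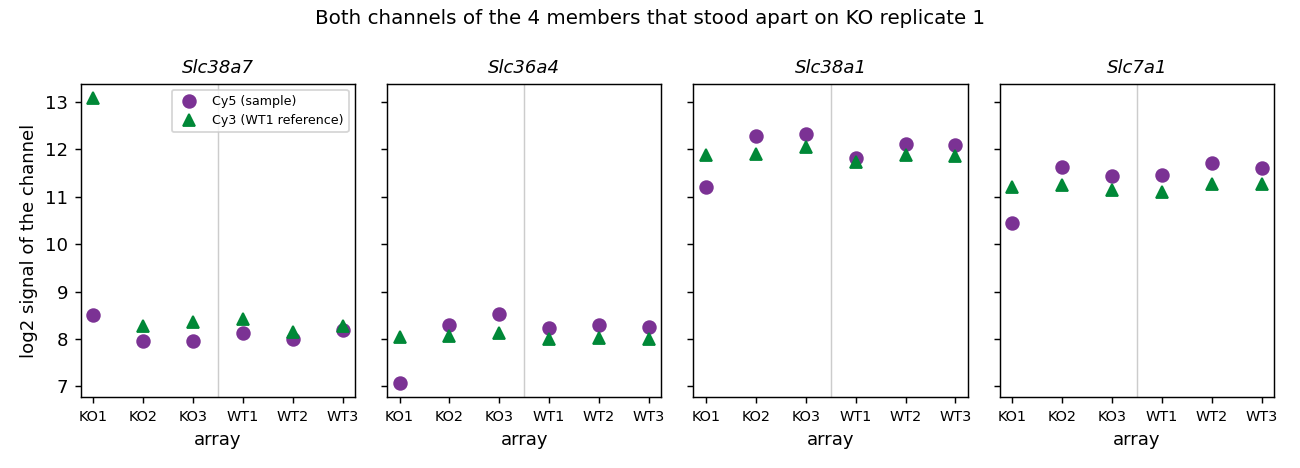
Log2 signal of the sample channel (Cy5) and the reference channel (Cy3) on each of the 6 arrays for Slc38a7, Slc36a4, Slc38a1 and Slc7a1, with purple circles for the sample and green triangles for the reference. On the array of KO replicate 1 Slc38a7 has a high reference signal of 13.08, and the other 3 genes have a low sample signal.

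Several calls depended on single arrays or on the scaling. The calls of Slc7a4, Slc7a12 and Slc38a4 held in each of 17 alternatives, and Slc38a3 lost its call only under median centring. Leaving out single arrays ended the call of Slc7a8 (KO replicate 2 or 3, WT replicate 1 or 3, adjusted p up to 0.0770), of Slc1a1 and Slc6a8 (KO replicate 2, WT replicate 1 or 3, up to 0.0845 and 0.0672), of Slc38a5 (KO replicate 3, WT replicate 2 or 3, up to 0.101) and of Slc38a6 (WT replicate 2 or 3, up to 0.0998). Median centring also ended the calls of Slc7a8, Slc1a1, Slc6a8 and Slc38a6, and Slc38a6 lost its call with Cy5 alone and with the authors' deposited ratios too (adjusted p = 0.0672 and 0.102). On the slide, the row that held all 3 KO arrays held only WT replicate 1 of the WT arrays, and WT replicates 2 and 3 lay in the other row. With slide row as a block KO is set against WT replicate 1 alone, the sample that is also the reference, and that lone sample is assumed to vary like the others. Slc7a4 then differed by -0.98 ± 0.15, Slc7a12 by -1.06 ± 0.23, Slc38a3 by -0.92 ± 0.19 and Slc38a4 by 1.13 ± 0.27, and these kept their calls. Slc6a7, whose direction was built into its selection, kept its call too. The other 6 members kept their direction but not their call. Slc7a8 differed by -1.13, Slc1a1 by -0.85, Slc6a8 by -0.55, Slc38a6 by -0.51, Slc1a6 by 0.65 and Slc38a5 by 0.25, with adjusted p from 0.060 to 0.390.

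The members that the filter left out included several carriers known from brain. Among these 17 genes were Slc1a2, Slc1a7, Slc6a2, Slc6a3, Slc6a4, Slc6a11, Slc6a14, Slc6a15, Slc6a21, Slc7a2, Slc7a11, Slc7a14, Slc7a15, Slc36a3, Slc38a11 and the non-carrier Slc36a1os. None of the 17 had a probe well above background on more than 2 arrays. Slc6a4, the serotonin carrier, Slc6a15, a neutral amino acid carrier, and Slc7a2, an arginine importer, were each well above background on 2 KO arrays and no WT array.

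Amino acid and peptide carriers outside these families also changed in both directions. Of 12 tested, 3 were higher and 5 were lower in KO (66.7% called, against 35.3% of all genes). Slc43a1, a leucine and phenylalanine carrier (LAT3), had 1.72, 1.20 and 1.03 in KO, against -0.10, 0.03 and -0.21 in WT (difference 1.41 ± 0.18, adjusted p = 0.000839). Its relative Slc43a2 (LAT4) moved the other way, with -2.16, -1.83 and -1.74 in KO, against 0.06, -0.62 and 0.10 in WT (-1.76 ± 0.21, adjusted p = 0.000650). The groups were more than 1 log2 unit apart in each. The aromatic amino acid carrier Slc16a10 was lower by 2.09-fold and the peptide carrier Slc15a2 by 2.08-fold, while the vesicular inhibitory amino acid carrier Slc32a1 was higher by 1.90-fold. The lysosomal histidine and peptide carrier Slc15a4 (-0.30 ± 0.09) and the lysosomal cystine exporter Ctns (-0.37 ± 0.12) were lower by small amounts, and their calls were lost in 11 and 9 of 17 alternatives, with Slc15a4 changing sign in 1 more. Cltrn, the kidney partner that brings Slc6a19 to the cell surface, had -0.32, -0.59 and -0.68 in KO, against 0.34, -0.63 and 0.04 in WT (-0.45 ± 0.24, adjusted p = 0.178), with WT replicate 2 again among the KO values.

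ATF4 is the transcription factor that cells raise when amino acids run short, and several SLC7 and SLC38 genes are among its known targets. Of 15 tested genes of this response, none was higher and 6 were lower in KO (40% called, against 35.3% of all genes). Atf4 itself had 0.11, 0.12 and -0.14 in KO, against 0.09, 0.35 and 0.11 in WT, and the groups overlapped (-0.15 ± 0.12, adjusted p = 0.356). Atf3, a stress-induced factor, had -1.59, -1.71 and -1.32 in KO, against -0.07, -0.04 and -0.12 in WT (-1.46 ± 0.12, adjusted p = 0.000216). The lipoprotein receptor Vldlr (-1.42 ± 0.18), the phosphatase subunit Ppp1r15a (-0.69 ± 0.11), the mTORC1 inhibitors Ddit4 (-0.80 ± 0.14) and Sesn2 (-0.40 ± 0.11) and the pseudokinase Trib3 (-0.53 ± 0.11) were also lower. Only Atf3 and Vldlr kept their calls in all 17 alternatives. Median centring ended the calls of Ppp1r15a, Ddit4, Sesn2 and Trib3, and with it the difference of Atf4 was 0.31. Sesn2 lost its call in 6 of 17 alternatives. Slc7a5, Slc3a2 and Slc1a4, which are commonly listed as ATF4 targets, were not called.

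Promoters of these genes were searched for the response element of ATF4 with C/EBP partners, to show which members carry it. The letters searched were TGATGNAA on either strand, read on the opposite strand as TTNCATCA, within the 250 bases before each RefSeq start (build GRCm38.p6). They occur in 1056 of 27025 gene promoters (3.91%), in 3 of the 41 members with a promoter entry and in 4 of 14 genes of the ATF4 list. The sequences below run 5′ to 3′ on the strand of the gene, with the motif in capitals. They are the 2 members that hold the form with C in the open position, and the 2 changed genes of the ATF4 list that hold the motif.
Slc7a11 (chr3:50443641-50443691, minus strand): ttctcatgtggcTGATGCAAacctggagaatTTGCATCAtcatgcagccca
Slc7a7 (chr14:54417926-54417952, minus strand): tagaagcTGATGCAAcagcttccccga
Atf3 (chr1:191183424-191183455, minus strand): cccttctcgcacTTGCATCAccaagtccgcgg
Vldlr (chr19:27216808-27216839, plus strand): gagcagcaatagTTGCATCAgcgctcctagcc
Slc7a11 holds 2 copies facing each other and was not measured above background. Slc7a7 has several RefSeq starts and holds a further match before another of them, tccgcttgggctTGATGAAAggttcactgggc at chr14:54418066-54418097, and was not called. Atf3 and Vldlr were the genes of the list with the largest falls. The third member with a match, Slc6a21, was below the filter, and Chac1 and Nupr1 of the ATF4 list hold the motif and were not called (0.04 ± 0.10 and -0.57 ± 0.28). A match of letters is a description of the sequence and shows no binding.

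Genes of amino acid synthesis and breakdown were called for 10 of 21 (47.6%, against 35.3% of all genes), with 3 higher and 7 lower. Within serine synthesis the first enzyme, Phgdh, was higher (0.41 ± 0.13, adjusted p = 0.0355, call lost in 6 of 17 alternatives) and the last, Psph, was lower (-0.74 ± 0.09, adjusted p = 0.000800). The proline synthesis enzyme Aldh18a1 (0.41 ± 0.11) and the creatine synthesis enzyme Gamt (0.53 ± 0.14) were higher, and the transaminase Got1 was lower (-1.15 ± 0.15). The asparagine synthetase gene Asns differed by -0.10 ± 0.11 (adjusted p = 0.502).

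Genes that pass amino acid levels to the growth kinase mTORC1 were called for 7 of 21 (33.3%), near the 35.3% of all genes. The lysosomal factor Tfeb (-0.88 ± 0.13), the Rag GTPase Rragd (-1.08 ± 0.19) and the scaffold subunits Lamtor4 (-0.70 ± 0.13), Lamtor2 (-0.48 ± 0.11) and Lamtor5 (-0.32 ± 0.10) were lower, the last with its call lost in 12 of 17 alternatives. The leucine sensor relative Sesn1 (0.65 ± 0.13) and the Rag GTPase Rragb (0.46 ± 0.12) were higher. Over the 4 lists together 31 of 69 tested genes were called (44.9%), 8 higher and 23 lower. No difference in share between these lists and the transporter families was tested.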

How the data were processed

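Per the file headers, the deposited array files hold median spot and background intensities of both channels, written by Agilent Feature Extraction 10.7.3.1 (version 6.1 per the submitters' processing notes). The authors' deposited series matrix holds log10 ratios of Cy5 over Cy3, already background-subtracted and dye-normalised, per the file headers. The series text calls the design single colour, whereas labels and files have 2 channels, and no dyes were swapped. Median intensities were corrected by normexp with an offset of 50, turned into log2 ratios and normalised by loess within each array, with controls at weight 0. Outlier spots, 196 to 403 per array, were dropped. Probes had to be well above background in Cy5 on 3 or more of the 6 arrays, and the probe of highest mean signal stood for its gene. Probes were named through accessions in a RefSeq table of GRCm38.p6 (27509 of 55681 probes). The array headers give another build, so gene positions are not given, and promoter sequences and their coordinates are those of RefSeq, GRCm38.p6.

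KO and WT were compared in R 4.3.3 with limma 3.58.1 (lmFit and eBayes, 2-sided) over 14755 genes, with Benjamini-Hochberg adjustment over all of them and a threshold of 0.05, which called 5214 genes (2262 higher, 2952 lower). Differences are KO minus WT with the moderated SE and n = 3 arrays per group. The fit was also tested on simulated data. P-values measure the spread between these samples, called biological replicates in the series text, and the number of arrays limits the precision. A gene not well above background throughout one group has only a bound, set on the Cy5 signal from the lowest value well above background. Every tested member could be named, and values on every array are given for called members, for both chains of heteromeric carriers and for members whose call depends on an alternative. Of the other lists, the called genes of a direction with at most 5 and those of smallest p are named. A few genes that these rules would name are not reported here. Members, lists and tests were chosen with earlier results of these data known. Alternatives were the authors' ratios, median centring, Cy5 alone scaled to its 75th percentile, an offset of 10, other filters, the mean over probes, slide row or replicate number as a block, array weights and each array left out. The authors' ratios were read from the array files and from the deposited matrix. These gave nearly the same results but count as separate alternatives, also in the tallies given for single genes.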

Additional observations from a re-analysis of the deposited data

How the results depend on the processing

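Over 674 alternative values of the members, 574 kept direction and side of the threshold, 31 lost a call, 41 gained one and 28 changed sign. Against 3 members higher and 8 lower, there were 5 and 3 with median centring, 1 and 4 (5 in all) with slide row as a block, 5 and 14 (19 in all) with array weights, and 15 lower (18 in all) with Cy5 alone. Leaving out single arrays gave 2 to 4 higher, 4 to 12 lower and 6 to 14 in all, lowest without WT replicate 3. Over all genes, slide row gave 2204 calls (730 higher, 1474 lower), median centring gave 1036 lower, and single arrays left out gave 3243 to 5715 calls (1269 to 2373 higher). The other amino acid genes had 2 higher and 14 lower with slide row, 9 lower with median centring, and 4 to 9 higher with single arrays left out, against 8 and 23. The median over members was -0.29 with the authors' ratios and with their matrix, -0.33 with Cy5 alone, -0.0727 with no filter, -0.0107 with median centring, -0.32 with slide row and -0.30 to -0.15 with single arrays left out. Median centring moved the median over all genes to 0.24.

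Differences turned sign with median centring for Slc1a5 (0.21), Slc36a1 (0.0508), Slc36a2 (0.0291), Slc38a1 (0.13), Slc3a2 (0.0228), Slc7a3 (0.19), Slc7a9 (0.26), Asns (0.19), Atf4 (0.31) and Slc15a4 (0.0045), with Cy5 alone for Slc38a7 (0.0813), with the mean over probes for Slc6a9 (-0.0435), with slide row for Slc6a13 (-0.11), Slc7a7 (-0.14) and Asns (0.0598), and with array weights for Slc38a1 (0.0677) and Slc6a13 (-0.0587). With single arrays left out they spanned zero for Slc36a4 (-0.61 to 0.0739), Slc38a1 (-0.38 to 0.15), Slc6a13 (-0.0847 to 0.18), Slc36a2 (-0.13 to 0.10), Slc7a3 (-0.13 to 0.0225), Slc7a9 (-0.32 to 0.19), Slc6a9 (-0.0628 to 0.13) and Slc7a7 (-0.0208 to 0.35). None of these was called except Slc15a4. The cause was not tested. Among the other amino acid genes named, calls were lost in 6 or more alternatives for Slc15a4, Ctns, Lamtor5, Phgdh, Sesn2 and Rragb.

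Same-numbered KO and WT arrays had deviations that correlated at 0.14, 0.08 and 0.20, each highest with its own number, and were not taken as pairs. With the replicate block, 13 members were called, 3 higher and 10 lower. The alternative on mean spot intensities could not be run, since the deposited array files hold median intensities. Dim probes such as Slc7a10, Slc38a8 and Slc6a7 limit what their ratios show.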
